A study of Homo sapiens with 6 samples.

Results

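The genes described here code for 10 proteins of the nuclear matrix and nuclear lamina: the scaffold attachment factors SAFB, SAFB2 and SLTM, the nuclear ribonucleoprotein HNRNPU, the lamins LMNA, LMNB1 and LMNB2, and the inner nuclear membrane proteins LBR, EMD and TMPO. They were chosen by name for their function, out of 58884 gene IDs in the expression tables. Each name was given 1 ID, by a rule that keeps the ID with the most counts where IDs share a name. All 10 had enough counts to be tested. The question was whether their mRNA levels differed after knockdown of Matrin3, itself a nuclear matrix protein that binds RNA.

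HCT116, a long-established line of human colorectal cancer cells, was profiled 48 h after transfection. In the siCTRL group the cells received a negative control siRNA, and in the siMatrin3 group they received pooled siRNAs that target Matrin3. Each group had 3 libraries, 6 in all. The labels name no other treatment or edit of the cells. The methods describe total RNA depleted of ribosomal RNA.

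The nuclear matrix is the protein and RNA framework that remains when soluble proteins and most chromatin are extracted from a nucleus. Scaffold attachment factors bind both RNA and AT-rich DNA that anchors chromatin to this framework. The lamina is a mesh of intermediate filaments under the inner nuclear membrane, built from A-type lamins and B-type lamins, and membrane proteins such as the lamin B receptor and emerin tie it to the membrane and to chromatin.

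Matrin3 mRNA was lower in every knockdown library. MATR3, in CPM (counts scaled to the library total), measured 363, 343 and 330.2 in the siCTRL libraries and 72.4, 67.9 and 71.4 in the siMatrin3 libraries. This left 20.4% of the control level, a log2 fold change of -2.29 ± 0.06 (SE, n = 3 per group, edgeR quasi-likelihood test with Benjamini-Hochberg adjustment, adjusted p = 7.58e-11). A second ID annotated as MATR3 (ENSG00000280987) overlaps it on the same strand, so reads may be split between them by estimate, and it fell as well (log2 fold change -1.73, edgeR adjusted p = 0.00329). Library totals ran from 4556658 to 8400412 estimated counts, and a member had between 184 and 7697 counts in a library. Of 10 colon epithelial markers, 6 could be tested, and the list's levels in TPM (transcripts scaled for length and for the library) summed to 1077 to 1147 in siCTRL and 1158 to 1170 in siMatrin3. The 4 others were under 1 TPM in every library. Of the 6 tested, 2 were higher, 0 lower and 4 did not pass, against 10.9% of all genes tested that passed. KRT19 has 5 annotated copies in the tables that could share reads with it. KRT19 and EPCAM rose (adjusted p = 0.0106 and 0.0183 by edgeR), and EPCAM did not pass in 3 of the 6 fits that left out 1 library. Neither passed with effective lengths as an offset, at log2 values of 0.22 and 0.30 (edgeR adjusted p = 0.118 and 0.105), against 0.23 and 0.28 without it. Nor did they pass on TPM, where the log2 difference was 0.11 for KRT19 (limma adjusted p = 0.358) and 0.19 for EPCAM (limma adjusted p = 0.238). Of 8 blood markers, none was above 1 TPM in a library, and of 8 fibroblast markers 6 were at 0 throughout. Because RNA was taken from whole cultures, fewer cells with a transcript and less of it per cell cannot be told apart.

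None of the 10 genes passed the threshold of an adjusted p of 0.05 between siMatrin3 and siCTRL in edgeR. Over all 14334 genes tested, 10.9% passed, 5.68% higher and 5.18% lower in siMatrin3. Only 1 of the 10, SLTM, had an unadjusted p under 0.05. DESeq2, which called 13.3% of the genes it adjusted, called 0 of the 10. edgeR with the replicate number as a block, which called 15.8% of genes, called 0 of the 10 as well. On TPM, limma called 0 of the 10 and 0.294% of the genes on that scale.

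The differences were small. The median log2 fold change of the 10 genes was 0.02 and the median of its size 0.06, against a median size of 0.16 over all genes tested. The 10 genes had 184 or more counts in every library, and this comparison was not matched for level. The fitted value was above 0 for 7 genes and below 0 for 3. For 9 of the 10, all but SLTM, the 95% interval of the change held 0, and the outermost bounds of these intervals were -14.3% and 23.6%. The CPM values of the groups did not overlap for 3 of the 10, against 29.8% of all genes tested. These were LBR, lower in siMatrin3, and EMD and TMPO, higher.

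**Figure D1:**
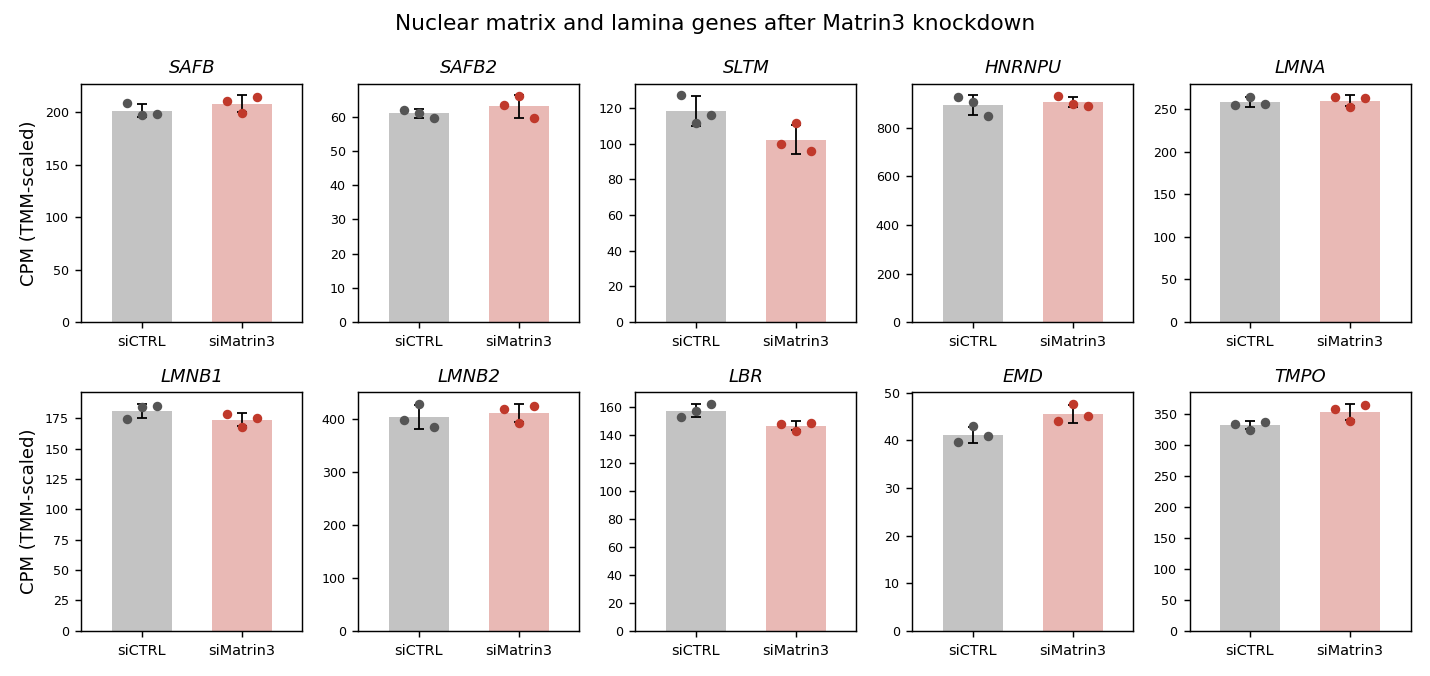
Level of each of the 10 genes in CPM scaled by TMM (y axis, from 0) in the siCTRL and siMatrin3 libraries. Points are libraries, bars are group means and error bars are SD (n = 3 per group). The means stand close together in every panel, with SLTM at 118 and 102 CPM the pair farthest apart in proportion.

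The scaffold attachment factors bind DNA through a SAP domain and RNA through an RNA recognition motif. SAFB (ENSG00000160633) and SAFB2 (ENSG00000130254) are close paralogs that lie head to head on chromosome 19, SAFB at 5623035 to 5668478 on the plus strand and SAFB2 at 5586999 to 5624046 on the minus strand (hg38, GENCODE 44), each with 21 exons. In RefSeq (GRCh38.p14) their starts are 307 bases apart. The stretch shown, chr19:5622833-5623026 on the plus strand, is where the 300-base promoter windows of SAFB and SAFB2 overlap. It is only part of the region before both RefSeq starts, and it lies inside the GENCODE 44 span of SAFB2. It holds 194 bases, 69.1% of them G or C, and capitals mark matches to the motifs searched.
SAFB and SAFB2 shared upstream region: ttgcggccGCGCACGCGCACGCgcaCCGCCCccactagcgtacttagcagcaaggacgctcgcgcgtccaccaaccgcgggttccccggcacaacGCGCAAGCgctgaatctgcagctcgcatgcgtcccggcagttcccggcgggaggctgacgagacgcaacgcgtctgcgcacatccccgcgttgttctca
The capitals hold 1 GC box (GGGCGG, here on the minus strand) and 3 matches to GCGCANGC, the core of the NRF1 motif, of which the first pair overlap. Over both strands of the RefSeq promoters of the 10 genes (14 windows of 300 bases), GCGCANGC occurred in 3 genes, SAFB, SAFB2 and SLTM, against 12.0% of all 35116 promoter windows. The windows of SAFB and SAFB2 both contain the region shown, so its 3 matches and its GC box count for both genes. The GC box occurred in 9 of the 10 against 45.0% of windows, CCAAT in 5 against 34.6%, CACGTG in 1 against 7.26% and TATAAA in none against 11.5%. Some genes had more than 1 window, which raises their count relative to single windows, and a match is a description of letters only.

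Neither SAFB nor SAFB2 passed the test on counts. SAFB measured 209, 197 and 199 CPM in siCTRL and 211, 199 and 215 CPM in siMatrin3. The groups overlapped, with a log2 fold change of 0.05 ± 0.05 (SE, edgeR adjusted p = 0.625) and a 95% interval of -4.55% to 12.2%. SAFB2, the less abundant of the pair, had 62.1, 61.1 and 59.7 CPM in siCTRL and 63.5, 66.2 and 59.6 CPM in siMatrin3. Here too the groups overlapped, and the interval of the change ran from -6.88% to 14.8% (edgeR adjusted p = 0.724). The spans of SAFB and SAFB2 overlap at their 5′ ends on opposite strands, and whether reads were counted by strand is not given in the sources used here.

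SLTM, the SAFB-like transcription modulator, had the largest difference of the 10. SLTM (ENSG00000137776) lies on chromosome 15 at 58879050 to 58933679, minus strand, with 21 exons. Its level was 127, 111 and 116 CPM in siCTRL and 99.6, 111 and 95.8 CPM in siMatrin3. The 2 libraries numbered 2 were almost equal, so the groups met at that value, and the others were lower in siMatrin3. The mean was 118 ± 8.15 (SD, n = 3) in siCTRL and 102 ± 8.17 in siMatrin3, a log2 fold change of -0.21 ± 0.07 (SE) with a 95% interval of -22.4% to -3.27%. This did not pass after adjustment (edgeR adjusted p = 0.0935), nor with the replicate block (edgeR adjusted p = 0.0634) or in DESeq2 (adjusted p = 0.0739). Without the second siMatrin3 library the value was -0.27 and passed (edgeR adjusted p = 0.0446), and it was below 0 in all 16 alternatives. In TPM the groups stood apart, at 79.6, 60.8 and 65.9 in siCTRL and 49.6, 52.3 and 49.7 in siMatrin3, although the limma difference of -0.43 did not pass (adjusted p = 0.119). RNF111, which overlaps SLTM on the opposite strand, had 50.9 ± 2.86 CPM in siCTRL and 52.3 ± 1.63 in siMatrin3.

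HNRNPU, also named scaffold attachment factor A, was the most abundant of the 10. It binds chromatin-associated RNA and scaffold DNA. HNRNPU (ENSG00000153187; chromosome 1, 244840638 to 244864560, minus strand, 14 exons) had 929, 905 and 849 CPM in siCTRL and 931, 899 and 889 CPM in siMatrin3. The groups overlapped throughout, with a log2 fold change of 0.02 ± 0.05 (SE, edgeR adjusted p = 0.862) and an interval of -6.16% to 9.44%. COX20, which overlaps the 3′ end of HNRNPU on the other strand, had 57.1 ± 1.96 CPM in siCTRL and 49.1 ± 5.42 in siMatrin3 (edgeR adjusted p = 0.133).

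LMNA makes the A-type lamins, lamin A and lamin C, from 1 gene (ENSG00000160789; chromosome 1, 156082573 to 156140081, plus strand). Lamin C has 572 codons and lamin A 664. The GENCODE 44 transcripts are 2461 bases for lamin C and 3178 bases for lamin A.

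None of the 3 lamin genes passed the test on counts. LMNA had 254, 265 and 255 CPM in siCTRL and 264, 252 and 263 CPM in siMatrin3. These values interleaved, and the interval of the change was -6.69% to 8.48% (log2 fold change 0.01 ± 0.05, edgeR adjusted p = 0.942). LMNB1 (ENSG00000113368; chromosome 5, 126776623 to 126837020, plus strand), a B-type lamin, had 174, 184 and 185 CPM in siCTRL and 178, 168 and 175 CPM in siMatrin3. Again the groups overlapped, with a fitted log2 difference of -0.06 ± 0.05 and an interval of -11.6% to 4.03% (edgeR adjusted p = 0.541). LMNB2 (ENSG00000176619; chromosome 19, 2427638 to 2456959, minus strand), the other B-type lamin gene, had 398, 429 and 385 CPM in siCTRL and 419, 391.7 and 424 CPM in siMatrin3. Its groups overlapped too, with an interval of -6.35% to 10.8% (edgeR adjusted p = 0.823).

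Among the inner nuclear membrane genes, the CPM values of LBR were lower and those of EMD and TMPO higher in siMatrin3 without overlap, but none passed the test (edgeR adjusted p from 0.266 to 0.298). LBR (ENSG00000143815; chromosome 1, 225401502 to 225428925, minus strand) codes for the lamin B receptor, which binds B-type lamins and heterochromatin and has sterol reductase activity. It had 152, 157 and 162 CPM in siCTRL and 148, 143 and 148 CPM in siMatrin3. All 3 siMatrin3 libraries were below all siCTRL libraries, yet the interval of -14.3% to 1.05% held 0 (log2 fold change -0.10 ± 0.05, edgeR adjusted p = 0.268).

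EMD (ENSG00000102119; chromosome X, 154379273 to 154381574, plus strand, 6 exons) codes for emerin, a LEM-domain protein that binds lamins and the chromatin protein BANF1. It had 39.7, 43.0 and 40.9 CPM in siCTRL and 44.03, 47.7 and 45.1 CPM in siMatrin3. The siMatrin3 values were all above the siCTRL values, with a fitted log2 change of 0.14 and an interval of -2.01% to 23.6% (edgeR adjusted p = 0.298).

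TMPO (ENSG00000120802; chromosome 12, 98515579 to 98550351, plus strand, 9 exons) codes for the LAP2 proteins, of which some forms sit in the membrane and 1, LAP2 alpha, in the nucleoplasm with A-type lamins. TMPO had 333, 324 and 336 CPM in siCTRL and 358, 339 and 363 CPM in siMatrin3. The groups did not overlap, but the gap between the highest siCTRL and the lowest siMatrin3 library was small, and the interval was -0.916% to 15.2% (log2 fold change 0.10 ± 0.05, edgeR adjusted p = 0.266). TMPO-AS1, which overlaps the start of TMPO on the other strand, had 6.74 ± 1.07 CPM in siCTRL and 4.999 ± 0.201 in siMatrin3 (edgeR adjusted p = 0.268).

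**Figure D2:**
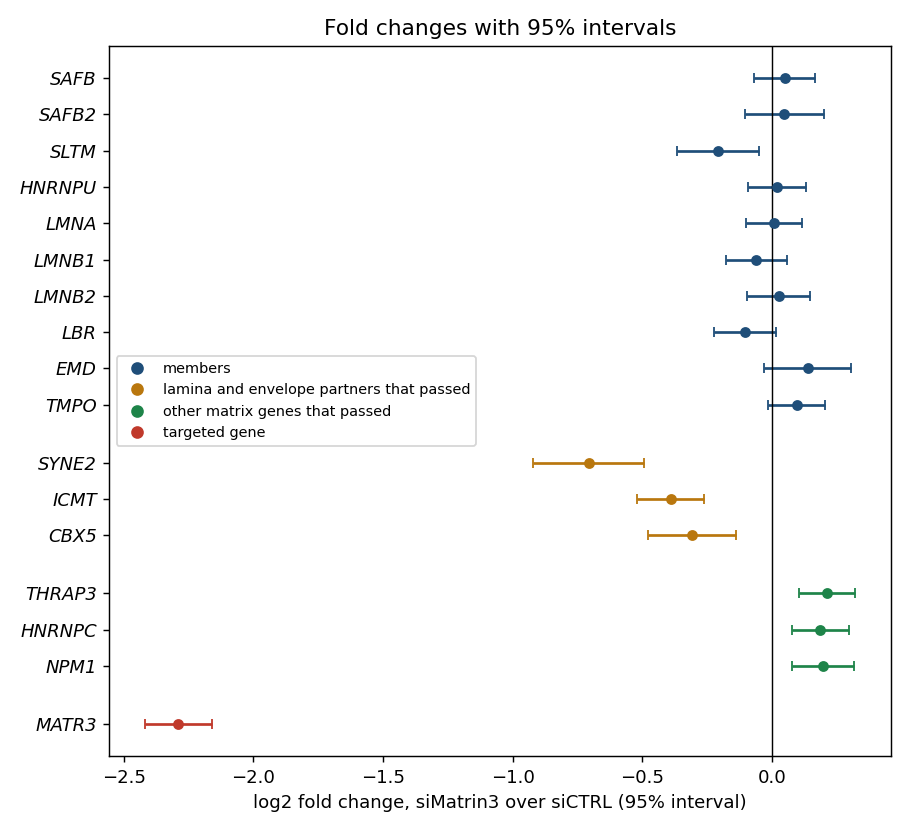
Log2 fold change of siMatrin3 over siCTRL (x axis) with 95% intervals (n = 3 per group). Shown are the 10 genes, MATR3, and the genes that passed in edgeR from the lamina partner list and the other matrix list. The 10 genes sit between -0.21 and 0.14, and MATR3 lies at -2.29.

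Per length, HNRNPU was the most abundant of the 10 in control cells. In siCTRL, HNRNPU averaged 348 ± 12.1 TPM (SD, n = 3), followed by TMPO at 136 ± 4.63 and LMNA at 124 ± 2.40. LMNB2 (95.9 ± 2.86) and SAFB (94.5 ± 7.82) came next and overlapped each other, and LMNB1 was at 82.9 ± 1.15. SLTM (68.8 ± 9.70) and LBR (57.5 ± 4.49) also overlapped, while EMD at 45.7 ± 3.08 and SAFB2 at 32.3 ± 2.78 closed the order. Apart from the overlapping pairs LMNB2 with SAFB and SLTM with LBR, neighbors in this order did not overlap in any siCTRL library.

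On TPM, the groups stood apart for 4 of the 10, against 23.9% of all genes tested, and these were not the genes that stood apart on CPM. SAFB averaged 94.5 ± 7.82 TPM in siCTRL and 83.0 ± 2.70 in siMatrin3, and HNRNPU 348 ± 12.1 and 319 ± 11.5. SLTM, above, was lower as well. LMNA was higher, at 121, 126 and 124 TPM in siCTRL and 127, 138 and 133 in siMatrin3. Over the 16326 genes of the limma fit the median log2 difference on TPM was -0.09, and the limma adjusted p of SAFB, HNRNPU and LMNA was 0.307, 0.323 and 0.467. On counts SAFB, HNRNPU and LMNA had fitted changes of at most 0.05 in log2.

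TPM divides a count by the effective length. This is the length of a gene's isoforms, each shortened for read or fragment length, averaged by their estimated share. The effective length was not used to choose the genes. It did not overlap between groups for 2 of the 10, LMNA and SAFB, against 9.44% of all genes tested. For LMNA it was 2156, 2118 and 2156 bases in siCTRL and 2014, 1729 and 1849 bases in siMatrin3. Every siMatrin3 value was below every siCTRL value, with means of 2143 ± 22.0 and 1864 ± 143 bases (SD), a difference of -13.0% (exact two-sided permutation test, p = 0.1, the smallest that 3 against 3 libraries allow). All 6 values lay below the transcript lengths of lamin C and lamin A given above. Those are whole lengths without the shortening, so the figures are not like for like. The tables list 25 transcripts for the gene. SAFB went the other way, from 2087, 2281 and 2222 bases in siCTRL to 2394, 2352 and 2394 bases in siMatrin3, a difference of 8.34% (exact permutation p = 0.1).

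LBR had the widest shift in bases of the 10, with 2534, 2991 and 2934 bases in siCTRL and 2341, 2357 and 2586 bases in siMatrin3, but the first siCTRL library lay inside the range of the siMatrin3 group (exact permutation p = 0.2). For the other 7 genes the groups overlapped, with exact permutation p values of 0.2 to 0.8. Leaving out the first siCTRL library, the second siMatrin3 library or the third siMatrin3 library raised the count of genes without overlap from 2 to 5 in each case, and leaving out any other library kept it at 2. Smaller groups overlap less readily for any gene. The share over all genes was not computed for these smaller sets, so the rise cannot be read as a trait of the 10 genes. Which isoforms carry these differences was not tested, since the tables give 1 length per gene.

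**Figure D3:**
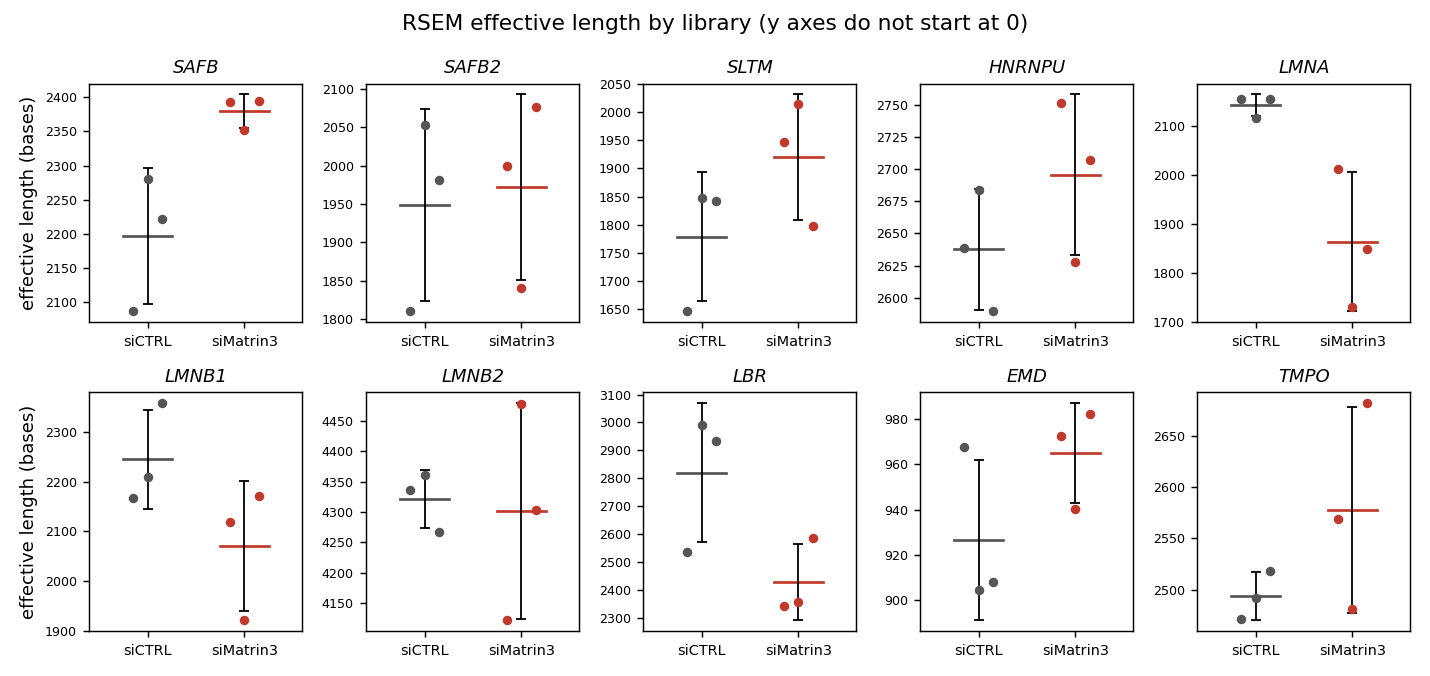
Effective length in bases (y axis, not from 0) of each of the 10 genes by library. Points are libraries, horizontal lines group means and error bars SD (n = 3 per group). LMNA was shorter and SAFB longer in every siMatrin3 library than in any siCTRL library.

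The balance between related genes was compared within each library as a log2 ratio of TPM. LMNA against the summed B-type lamins stood at -0.55, -0.54 and -0.51 in siCTRL and at -0.50, -0.26 and -0.33 in siMatrin3. The siMatrin3 ratios were all higher, by 0.17 on average (exact permutation p = 0.1, adjusted over the 3 ratios 0.3; paired by library number, exact permutation p = 0.25, the smallest that 3 pairs allow), which is 0.692 LMNA transcripts per B-type lamin transcript in siCTRL and 0.776 in siMatrin3. On CPM, which leaves the length out, the difference was 0.01 (exact permutation p = 0.8).

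LMNB1 against LMNB2 stood at -0.19, -0.24 and -0.20 in siCTRL and at -0.27, -0.0038 and -0.29 in siMatrin3. The second siMatrin3 library lay above and the others below the siCTRL values, so the difference of 0.02 had an exact permutation p of 1. On CPM the sign turned, with a difference of -0.09 (exact permutation p = 0.1). The SAFB to SAFB2 ratio stood at 1.54, 1.54 and 1.57 in siCTRL and at 1.47, 1.24 and 1.65 in siMatrin3, which overlapped around the control values (difference -0.10, exact permutation p = 0.7). On TPM, the second siMatrin3 library stood apart from the other siMatrin3 libraries in the LMNB1 to LMNB2 ratio. In the SAFB to SAFB2 ratio it was the lowest of the siMatrin3 values, which were spread on both sides of the control values.

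**Figure D4:**
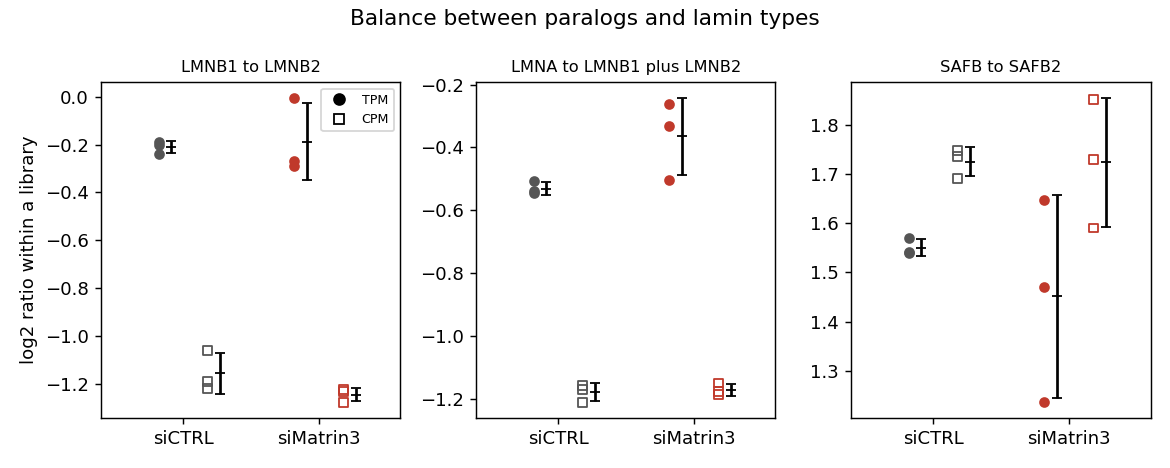
Log2 ratios between related genes in each library (y axis), from TPM (circles) and from CPM (squares), for LMNB1 to LMNB2, LMNA to the summed B-type lamins, and SAFB to SAFB2. Horizontal lines are group means and error bars SD (n = 3 per group). The LMNA ratio has a mean of -0.53 in siCTRL and -0.37 in siMatrin3 on TPM, and of -1.18 and -1.17 on CPM.

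Partners of the lamina and nuclear envelope were read from the same test. Of 34 listed genes 32 were tested, of which 0 were higher, 3 lower and 29 not past the threshold. This count is close to the 10.9% of all genes tested, and the list's median was 0.03 in log2 against -0.00065 over all genes. SYNE2, which codes for nesprin-2 and links the envelope to the cytoskeleton, fell from 148, 177 and 183 CPM in siCTRL to 91.4, 122 and 101 CPM in siMatrin3 (log2 fold change -0.71 ± 0.10, edgeR adjusted p = 0.000728). The SYNE2 groups did not overlap in CPM but overlapped in TPM (limma adjusted p = 0.320). With effective lengths as an offset the value was -0.38 and did not pass (edgeR adjusted p = 0.253). The mean effective length of SYNE2 was 19.9% lower in siMatrin3, with overlap. ICMT, a methyltransferase of prenylated proteins such as B-type lamins, fell from 115, 115 and 120.3 CPM to 89.3, 91.2 and 86.6 CPM (log2 fold change -0.39 ± 0.06, edgeR adjusted p = 0.00128). Its groups did not overlap in CPM or in TPM, but the log2 difference of -0.50 on TPM did not pass (limma adjusted p = 0.0619). With effective lengths as an offset ICMT was at -0.41 and passed (edgeR adjusted p = 0.0339). CBX5, the heterochromatin protein HP1 alpha, which binds LBR, fell from 384 ± 34.6 to 310.1 ± 33.6 CPM (SD, n = 3, log2 fold change -0.31 ± 0.08, edgeR adjusted p = 0.0233). With effective lengths as an offset CBX5 was at -0.19 and did not pass (edgeR adjusted p = 0.430), its effective length was lower without overlap (-8.76%), and its TPM groups overlapped. CBX5 also did not pass when any 1 of 4 libraries was left out (the second or the third siCTRL library, the first or the second siMatrin3 library; edgeR adjusted p from 0.0675 to 0.130), while SYNE2 and ICMT passed whichever library was left out. The spans of SYNE2, ICMT and CBX5 each overlap another annotated gene. With the replicate block, against 15.8% of all genes, 2 partners were higher and 4 lower: BANF1 (0.22, edgeR adjusted p = 0.0316) and CBX1 (0.17, adjusted p = 0.0305) were higher and SYNE1 (-0.44, adjusted p = 0.0485) was lower, beside the 3 above.

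Other nuclear matrix and scaffold proteins were a second list, of 30 genes, all tested. Of these, 3 were higher, 0 lower and 27 not past the threshold, again close to the 10.9% of all genes tested, with a median of 0.03. THRAP3, a splicing-associated protein, rose from 267, 264 and 251 CPM in siCTRL to 304, 298 and 304 CPM in siMatrin3 (log2 fold change 0.21 ± 0.05, edgeR adjusted p = 0.0161). HNRNPC, which binds nuclear RNA, was at 585 ± 20.9 CPM in siCTRL and rose to 667 ± 20.04 in siMatrin3 (log2 fold change 0.19 ± 0.05, edgeR adjusted p = 0.0302). NPM1, which codes for nucleophosmin of the nucleolus, was at 1237 ± 60.02 CPM and rose to 1420 ± 67.2 (log2 fold change 0.20 ± 0.06, edgeR adjusted p = 0.0365). None of the 3 passed with effective lengths as an offset (edgeR adjusted p from 0.125 to 0.178), a fit in which 204 genes passed over the whole table. Their log2 values in that fit were 0.21, 0.20 and 0.18, near those without the offset. On TPM their log2 differences were 0.11, 0.10 and 0.07 (limma adjusted p from 0.430 to 0.6003), on a scale with a median of -0.09. THRAP3, HNRNPC and NPM1 have 3, 9 and 49 annotated copies in the tables that could share reads with them. Without the third siCTRL library, the first siMatrin3 library or the third siMatrin3 library 0 genes of this list passed, and without the first siCTRL library 1 did, THRAP3. With the second siMatrin3 library left out 2 passed, THRAP3 and HNRNPUL1. With the replicate block 5 were higher and 0 lower, against 15.8% of all genes, among them HNRNPUL1 (0.17, edgeR adjusted p = 0.0328), a relative of HNRNPU.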

How the data were processed

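RNA-seq was made in 6 cultures of HCT116 cells, 3 per group, and groups follow the sample titles. The labels name a stranded mRNA kit, whereas the methods describe ribosomal RNA depletion with a directional kit. Per the labels, the authors used cutadapt, TopHat and RSEM on hg19. They deposited expected counts (estimated reads per gene, not normalized), TPM (scaled by RSEM within a library), effective lengths in bases and FPKM. The authors' FPKM was not used. Neither the annotation release nor the strand setting is given in the sources used here. IDs were matched to GENCODE 44 on hg38 (58472 of 58884, 99.3%), and positions are of that build.

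Expected counts were rounded, filtered by filterByExpr (minimum count 10, total 15; 14334 genes) and tested in edgeR 4.0.16 (R 4.3.3) with TMM, the quasi-likelihood test and Benjamini-Hochberg adjustment at 0.05. CPM used TMM-adjusted totals. Alternatives were DESeq2 1.42.0, limma 3.58.1 on log2(TPM + 1) for genes of at least 1 TPM in 3 libraries, other scalings and filters, effective lengths as an offset, a replicate block and leaving out each library. Single values were compared by exact two-sided permutation, for which 3 against 3 cannot go below 0.1. The tests were tried on simulated data.

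Same-numbered libraries deviated together (correlations 0.107, 0.104 and 0.157), which by a rule of over 0.1 in every pair counts the numbers as pairs. The main edgeR fit, its intervals and the permutation tests of effective length did not use these pairs, while the replicate block did. The p-values measure the spread between cultures of 1 line. Biological variation between replicates (coefficient of variation in edgeR) was 6.44%. No pair of libraries of a group agreed within counting noise. The members and lists were chosen with earlier results of these data known, and the promoter motifs after the sequences had been read. Named genes are the 10 members, MATR3, the genes of a list that passed (up to the 5 of lowest p), the lowest p of a list with none and genes that overlap a member. Genes named only with the block were added after their values were seen. Promoter sequence is from RefSeq (10 of 10 members matched) and lamin transcript lengths are from GENCODE 44. Some items are not reported here.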

Additional observations from a re-analysis of the deposited data

How the results depend on the processing

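No alternative that kept all 6 libraries called any of the 10 genes, and 1 passed without the second siMatrin3 library (range 0 to 1). Over all genes tested 1557 passed, 204 with effective lengths as an offset, 48 and 31 with limma on log2(TPM + 1) and log2(TPM + 0.1), 589 at an adjusted p of 0.01 and 707 to 1256 with a library left out. The lamina partner list (3 passing) gave 1 with the offset, 6 with the replicate block, 0 and 0 on TPM, and 2 to 3 with a library left out. The matrix list (3) gave 0, 5, 0 and 0, 0 at 0.01 and 0 to 3 with a library left out. The nuclear pore list (3) gave 0, 6, 0 and 0, 1 at 0.01 and 1 to 2. The epithelial list (2) gave 0 with the offset, on TPM and at 0.01, as did the proliferation list (4). The replicate block changed no call among the 10 genes. Sign changes, all in values that did not pass, were as follows. With the offset SAFB was -0.078, HNRNPU -0.021, LMNB1 0.048 and LBR 0.10. On log2(TPM + 1) and log2(TPM + 0.1) SAFB was -0.18 and -0.18, SAFB2 -0.082 and -0.085, HNRNPU -0.13 and -0.13, LMNB2 -0.0775 and -0.0783, EMD -0.0261 and -0.0266, and TMPO -0.0665 and -0.0669. The median on log2(TPM + 1) was -0.092, and of these genes only SAFB and HNRNPU lay below it. With a library left out HNRNPU ran from -0.016 to 0.047, LMNA from -0.0048 to 0.031 and LMNB2 from -0.0073 to 0.076. COL1A1 was 0.0021 without the count filter, 0.0060 with the replicate block and -0.11 to 0.071 with a library left out. The LMNB1 to LMNB2 difference was -0.088 on CPM and -0.070 to 0.073 with a library left out, that of LMNA to the B-type lamins 0.11 to 0.23 and that of SAFB to SAFB2 -0.20 to 0.0090. Genes without overlap in effective length numbered 2 to 5 with a library left out, where the share over all genes was not computed. The cause of these changes was not tested. Among the 10 genes the SE of the log2 fold change ran from 0.050 (TMPO) to 0.078 (EMD).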

Other observations

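Nuclear pore genes code for the channels that the lamina anchors. Of 31 listed, 31 were tested, 1 was higher, 2 lower and 28 did not pass, close to the 10.9% of all genes tested that passed, with a median log2 fold change of 0.02. SEH1L, a scaffold subunit of the pore, rose from 75.5, 67.5 and 57.6 CPM in siCTRL to 96.6, 81.8 and 94.5 CPM in siMatrin3 (log2 fold change 0.45 ± 0.09, edgeR adjusted p = 0.00862). NUP107 and NUP85, subunits of the same Y-shaped complex, fell from 109 ± 6.65 to 90.6 ± 3.04 CPM and from 95.5 ± 8.78 to 78.7 ± 1.602 CPM (edgeR adjusted p = 0.0198 and 0.0280). SEH1L passed whichever library was left out and was the 1 gene of this list to pass without the first or the third siMatrin3 library. NUP107 and NUP85 each lost the call with 4 of the 6 libraries left out in turn (edgeR adjusted p up to 0.0782 and 0.135). None of the 3 passed with effective lengths as an offset (edgeR adjusted p from 0.137 to 0.357). The log2 values of SEH1L, NUP107 and NUP85 were 0.43, -0.28 and -0.26 in that fit, against 0.45, -0.27 and -0.28 without the offset. With the replicate block 2 were higher and 4 lower in edgeR, against 15.8% of all genes. RANBP2 (0.15, adjusted p = 0.0478) was higher, and NUP155 (-0.16, adjusted p = 0.0475) and NUP35 (-0.33, adjusted p = 0.0375) were lower, besides those above.

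Of 16 proliferation markers tested, 3 were higher, 1 lower and 12 did not pass, against 10.9% of all genes tested, with a median of 0.11. No marker passed with effective lengths as an offset, on TPM or at an adjusted p of 0.01. MCM6 and MCM2, subunits of the replicative helicase, rose from 174 to 206 and from 213 to 252 CPM (edgeR adjusted p = 0.0133 and 0.0211), TYMS, thymidylate synthase, rose from 179 to 203 (adjusted p = 0.0465) and CCNE1, cyclin E1, fell from 51.7 to 40.4 (adjusted p = 0.0203). With the offset the log2 values of MCM6, MCM2, TYMS and CCNE1 were 0.24, 0.19, 0.19 and -0.33, against 0.24, 0.24, 0.19 and -0.37 without it. TYMS lost the call with any of the 6 libraries left out (edgeR adjusted p up to 0.185), MCM2 and CCNE1 with 4 of the 6 and MCM6 with 2. With the replicate block 6 were higher and 1 lower, against 15.8% of all genes, and 7 passed in DESeq2, against 13.3%. Among neural markers, 1 of the 3 tested passed, MAP2, which fell from 11.7 ± 2.49 to 7.14 ± 1.84 CPM (edgeR adjusted p = 0.0464, not called with 4 of the 6 libraries left out in turn, on TPM or with the length offset), and the list summed to 65.9 to 78.0 TPM in siCTRL and 53.1 to 58.5 in siMatrin3. COL1A1, the 1 fibroblast marker tested, had 18.9 ± 1.08 and 18.9 ± 2.36 CPM (edgeR adjusted p = 0.967).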
